A study of Mus musculus with 62 samples.

Results

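The oxidative phosphorylation genes of the mouse brain were taken by name. They were the protein-coding genes whose symbols begin with Nduf, Sdh, Uqcr, Cox or Atp5 followed by a letter or digit, or with mt-. The rule found 124 genes among 56415 in the count table, of which 21636 are protein-coding. Of these, 111 are nuclear and 13 are the protein-coding genes of the mitochondrial genome. The nuclear genes were 77 subunits, 22 assembly factors, 11 tissue isoforms or copies and 1 inhibitor of the ATP synthase. No measured value entered the rule, but the set was chosen with earlier results of these data known. By complex, the nuclear set held 46 genes of complex I, 8 of complex II, 8 of complex III, 30 of complex IV and 19 of complex V, and the mitochondrial set 7 of complex I, 1 of complex III, 3 of complex IV and 2 of complex V.

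Poly(A) RNA was sequenced from 62 pieces of brain tissue of 16 male C57BL/6J mice, 8 to 10 weeks old. Each mouse received 2 g/kg ethanol in saline, or saline alone, by intraperitoneal injection, once (acute) or daily for 10 d (chronic), and was killed 4 h after the last injection. The regions were cortex (CTX), dorsal and ventral hippocampus (dHPC and vHPC), and dorsal and ventral striatum (DS and VS), so that 5 regions, 2 paradigms and 2 treatments made 20 groups of 3 to 4 libraries, each from its own mouse. The same mice supplied several regions, so the 5 regions are not independent repeats of an experiment. The libraries of CTX and dHPC, called batch 1, were made with a kit that does not mark strand. Those of vHPC, DS and VS, batch 2, were made with a directional kit. The batches also differed in sequencer and read length, so kit, sequencer, read length and region cannot be told apart between them. All ethanol and saline comparisons were made within a region, and thus within a batch.

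Oxidative phosphorylation passes electrons from NADH (complex I) or succinate (complex II) through complex III to oxygen at complex IV, and the proton gradient built on the way drives ATP synthase, complex V. Complexes I, III, IV and V are built from proteins of both genomes, whereas complex II is wholly nuclear. Neurons depend on this pathway for the ion pumping that follows synaptic activity. Nuclear subunit genes are known targets of the factors NRF1 and GABPA (an ETS family factor), while the mitochondrial genes are transcribed as long precursors from promoters inside the organelle and cut into single mRNAs.

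The promoter letters of 4 of the nuclear genes described in chronic CTX, chosen after their values were seen as examples of the cores searched for, are shown first: Sdhb (ENSMUSG00000009863), Sdhd (ENSMUSG00000000171), Uqcrc1 (ENSMUSG00000025651) and Atp5me (ENSMUSG00000050856). Promoters (250 bases before to 50 after the start, RefSeq, GRCm38.p6) were found for 87 of the 110 nuclear symbols, 13 of them through a synonym. The searched letters were CGCATGCG, the NRF1 core, which reads the same on both strands, and CCGGAAG or its other strand CTTCCGG, the ETS core. The NRF1 core stood in 11 of 87 member promoters, or 12.6%, and in 2.77% of 17491 protein-coding promoters. The ETS core stood in 26, or 29.9%, and in 12.9% of all. By complex, the ETS core stood in 6 of 40 promoters of complex I (15%), 5 of 7 of complex II, 2 of 5 of complex III, 8 of 21 of complex IV and 5 of 14 of complex V. The NRF1 core stood in 4 of 40, 0 of 7, 2 of 5, 1 of 21 and 4 of 14 in the same order. A match is a run of letters and not a measured binding site. Capitals mark the cores in the lines that follow. Sdhb and Sdhd, which encode the iron-sulphur and the small membrane-anchor subunit of succinate dehydrogenase, are shown as complex II genes with an ETS core (chr4:140961021-140961320, plus strand, first core base at 7, and chr9:50603800-50604099, minus strand, at -46, counted from the start). Uqcrc1, a core protein of complex III, is shown for its NRF1 core (chr9:108936398-108936697, plus strand, at 32). Atp5me, subunit e of the ATP synthase, is shown because it held both (chr5:108434350-108434649, minus strand, NRF1 core at -49).
Sdhb: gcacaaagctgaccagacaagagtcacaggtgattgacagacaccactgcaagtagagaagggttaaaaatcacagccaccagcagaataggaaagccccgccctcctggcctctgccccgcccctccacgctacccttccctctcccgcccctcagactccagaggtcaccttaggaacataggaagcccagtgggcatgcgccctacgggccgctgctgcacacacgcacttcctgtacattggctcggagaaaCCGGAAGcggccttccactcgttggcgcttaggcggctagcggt
Sdhd: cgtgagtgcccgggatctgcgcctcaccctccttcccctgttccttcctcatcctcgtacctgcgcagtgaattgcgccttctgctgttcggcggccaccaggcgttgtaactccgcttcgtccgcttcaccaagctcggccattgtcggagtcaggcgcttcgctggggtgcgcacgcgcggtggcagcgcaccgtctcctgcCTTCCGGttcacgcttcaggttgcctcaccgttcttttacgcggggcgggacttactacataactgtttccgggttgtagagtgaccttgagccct
Uqcrc1: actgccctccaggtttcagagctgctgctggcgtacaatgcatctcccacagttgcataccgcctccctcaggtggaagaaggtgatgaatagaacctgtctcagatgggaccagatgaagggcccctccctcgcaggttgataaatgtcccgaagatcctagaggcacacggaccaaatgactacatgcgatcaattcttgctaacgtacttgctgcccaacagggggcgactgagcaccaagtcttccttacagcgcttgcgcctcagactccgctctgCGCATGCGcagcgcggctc
Atp5me: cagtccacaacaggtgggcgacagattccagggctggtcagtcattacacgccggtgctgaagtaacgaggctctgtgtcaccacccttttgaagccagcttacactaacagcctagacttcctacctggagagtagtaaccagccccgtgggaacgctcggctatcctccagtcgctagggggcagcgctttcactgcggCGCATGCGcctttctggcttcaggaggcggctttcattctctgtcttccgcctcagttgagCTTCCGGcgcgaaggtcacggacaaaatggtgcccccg

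On the mitochondrial chromosome (GRCm39, printed on the plus strand), some neighbouring genes share bases, which bears on their counts. The reading frames of mt-Atp8 and mt-Atp6, both membrane subunits of ATP synthase, share 43 bases at chrMT:7927-7969, in capitals in the first line (chrMT:7917-7979). Both lie on the plus strand, so a read across the shared stretch was counted for both. The ends of mt-Nd5 and mt-Nd6, subunits of complex I on opposite strands, share 14 bases at chrMT:13552-13565, in capitals in the second line (chrMT:13542-13575). Counting was set to 1 strand, so a read there added to the gene of the matching strand only, and in libraries whose kit does not mark strand that gene need not be its source.
mt-Atp8/mt-Atp6: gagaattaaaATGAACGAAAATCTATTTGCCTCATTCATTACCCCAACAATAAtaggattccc
mt-Nd5/mt-Nd6: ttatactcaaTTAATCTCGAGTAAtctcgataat

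Library depth ran from 8149628 to 71164766 counts on genes, and every library of batch 1 held at least 43173748. No library repeated another (66 pairs within groups, 0 with identical counts, lowest chi-square per degree of freedom 5.22). Markers of pallial excitatory neurons (9 genes) summed to 1944 to 2438 CPM (a counts-per-million unit) in CTX, 1334 to 2053 CPM in dHPC and 1622 to 2640 CPM in vHPC, against at most 676 CPM in DS and 894 CPM in VS. Markers of striatal projection neurons (12 genes) summed to 6253 to 11142 CPM in DS and 4038 to 7877 CPM in VS, but they reached 3884 CPM in dHPC and 2167 CPM in vHPC, where their medians were 721 and 533 CPM. Dentate granule neuron markers (6 genes) did not set every hippocampal library apart, at 172 to 922 CPM in vHPC and 321 to 684 CPM in dHPC against 187 to 385 CPM in DS. The chronic saline DS library of replicate 2 stood apart, since it held no counts on 41 of the 124 genes, among them all 13 mitochondrial ones. Of these 41 genes, 37 had counts in every other DS library. It was left out of the tests of chronic DS and of the DS interaction, and values with it are given beside those results. Cox8c had no count in any library.

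In CTX, the mean level of each mitochondrial gene stood above that of each nuclear member. For mt-Nd6 this held at a level (1764 ± 411, SD) that cannot be told apart from reads of the other strand, and in the directional libraries mt-Nd6 averaged 115 in DS, 93.3 in VS and 50.5 in vHPC, below Cox8a at 264, 305 and 338. Levels are given as CPM per kilobase of exon, a length-adjusted level. In CTX (n = 12 libraries), mt-Co1, the catalytic subunit of complex IV, averaged 8624 ± 761 (SD), and mt-Nd3 of complex I, the lowest of the 13 as counted in CTX, 1140 ± 143. The highest nuclear gene was Cox8a of complex IV at 398 ± 47.3, followed by Cox6a1 at 298 ± 39.5. Atp5f1a and Atp5f1b, the α and β subunits of the catalytic head of ATP synthase, stood next at 232 ± 14.1 and 214 ± 16.4, and differed by about the spread of either. Within a complex, transcript levels differed widely between subunits. Nuclear complex I subunits ran from 6.76 to 98.9 (median 39.7, 37 genes), complex II from 18.1 (Sdhc) to 81.7 (Sdha, median 43.0), complex III from 38.8 to 91.1 (median 56.1), complex IV from 38.6 to 398 (median 88.5) and complex V from 12.3 to 232 (median 41.7). Complex IV had the highest median and complex III the next in all 5 regions, where complex IV medians ran from 87.2 to 97.4 and complex III medians from 56.1 to 63.3.

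**Figure D1:**
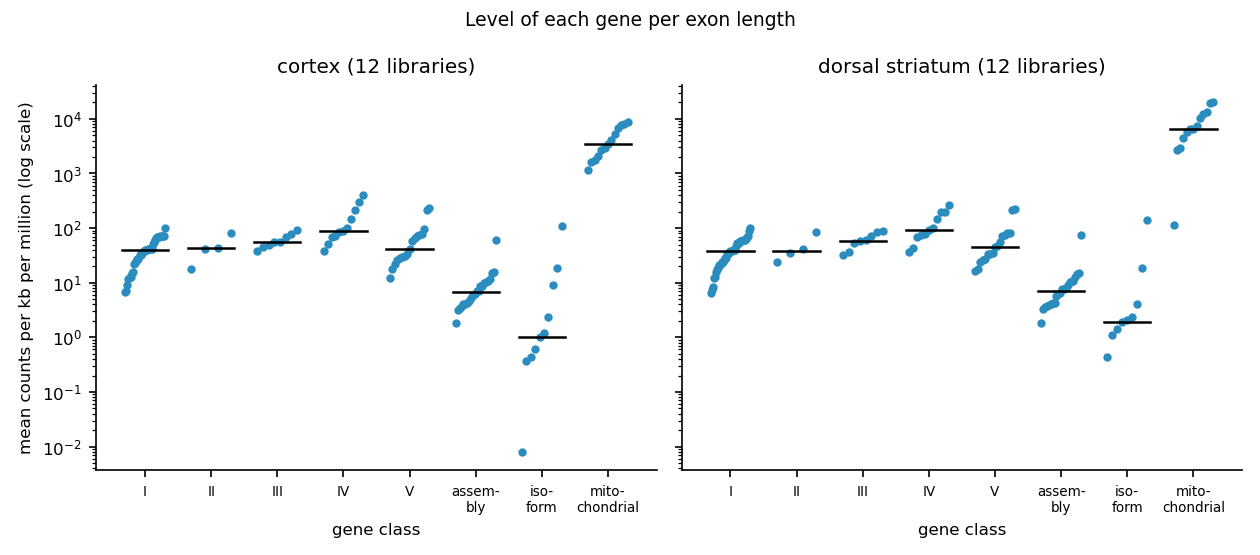
Mean level of each gene in CPM per kilobase of exon (log axis) in CTX and DS, 12 libraries each, with genes grouped by complex, by assembly factors and isoforms, and by genome. Bars are medians. Mitochondrial genes occupy the top of both panels except mt-Nd6, which stood at 115 in DS, and most isoforms lie at the bottom.

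The tissue isoforms were low beside their common partners. In CTX, Cox4i1 stood at 210 ± 19.2 and its hypoxia-linked isoform Cox4i2 at 1.02 ± 0.391. The muscle isoforms Cox6a2, Cox7a1 and Cox8b stood at 9.26 ± 1.34, 2.34 ± 0.410 and 0.429 ± 0.199, against 298 for Cox6a1, 84.2 for Cox7a2 and 398 for Cox8a. Cox6b2, the testis isoform, stood at 0.612 ± 0.166 and Cox6b1 at 146 ± 13.8, and Ndufa4l2 stood at 1.18 ± 0.314 and Ndufa4 at 99.0 ± 8.03. Cox8b ran from 0.429 in CTX to 4.43 ± 2.53 in dHPC (n = 13). The ventricle's choroid plexus moved with it: the sum over 10 choroid plexus markers had a median of 16.2 CPM in CTX and 2321 CPM in dHPC. The part of that tissue in the Cox8b level was not tested.

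Among the mitochondrial genes the order changed between batches, which differ in kit, sequencer, read length and region together. mt-Atp6 and mt-Atp8 led in vHPC, DS and VS (19255 and 20321 in DS), whereas mt-Co1 led in CTX and dHPC. mt-Nd6, the single protein-coding gene of the opposite strand, had a median of 911 CPM (313 to 1131) over the 25 libraries of batch 1 and of 45.7 CPM (19.7 to 89.2) over 36 of batch 2. Reads of mt-Nd6 and of transcripts from the other strand cannot be told apart in batch 1, where the kit does not mark strand.

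The share of gene counts on the 13 mitochondrial genes was higher in striatum than in the other regions of the same batch. The chronic saline DS library of replicate 2, at 0% mitochondrial and 1.283% nuclear counts, is not in the ranges that follow. The mitochondrial share ran from 7.39% to 10.4% in the other 12 DS libraries (median 9.31%) and from 6.06% to 8.07% in VS (7.34%), with no overlap with vHPC at 3.88% to 5.37% (4.35%). In batch 1 it was 3.602% to 5.93% in CTX and 4.15% to 5.47% in dHPC. The nuclear members together took 0.786% to 1.02% of counts across the 5 regions, again without that library. Bulk tissue was sequenced, so more cells of a type and more RNA per cell cannot be told apart here or in any result that follows.

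**Figure D2:**
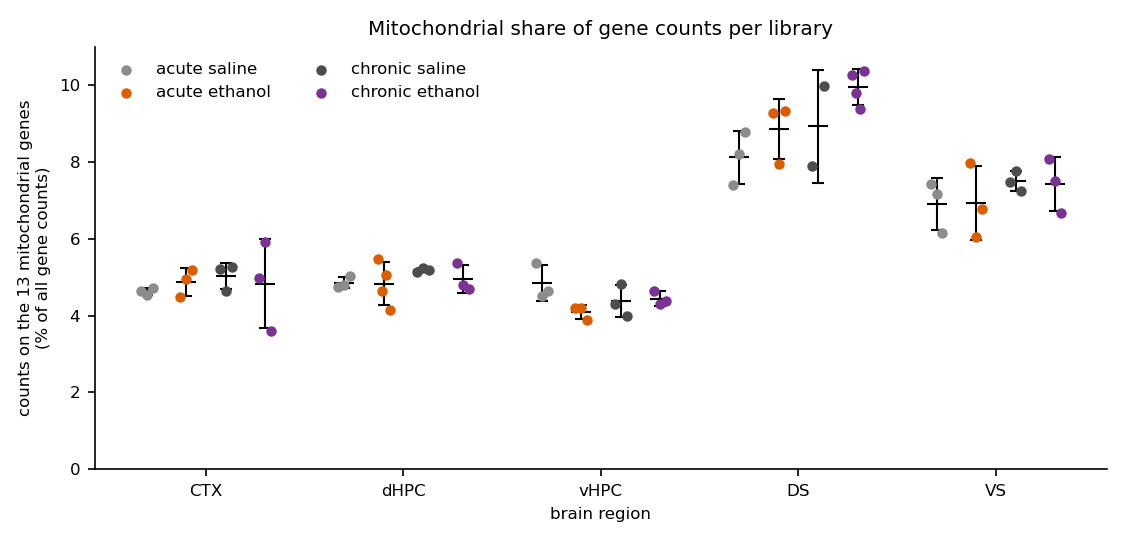
Percent of all gene counts that fell on the 13 mitochondrial genes, one point per library, by region and group, with group means and 1 SD either side (the chronic saline DS library of replicate 2 is not drawn). DS and VS points lie above those of CTX, dHPC and vHPC, and in acute vHPC the 3 ethanol points lie below the 3 saline points.

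Between ethanol and saline the share differed without overlap in 1 comparison. In acute vHPC the 3 saline libraries had 4.51% to 5.37% (4.85% ± 0.463) and the 3 ethanol libraries 3.88% to 4.19% (4.09% ± 0.182), and the groups did not overlap. No test was run on the share, and an exact permutation test of 3 against 3 libraries could not give a two-sided p below 0.1. In the other 9 comparisons the groups overlapped, for example at 4.63% ± 0.0851 with saline and 4.88% ± 0.363 with ethanol in acute CTX. In chronic CTX the ethanol libraries spread from 3.602% to 5.93%.

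The comparisons of ethanol with saline ask whether the transcripts of the respiratory chain respond to 1 or 10 doses, and whether both genomes respond alike. edgeR's quasi-likelihood test, run over all genes with the Benjamini-Hochberg false discovery rate (FDR) held below 0.1, called 0 members in each of the 10 comparisons and each of the 5 interactions of paradigm and treatment. The calls of DESeq2 are set beside its calls over all genes in the closing section. DESeq2 called 7 members in acute vHPC, 1 in acute DS, 1 in chronic CTX and 4 in the vHPC interaction, and 0 in the other 11 tests. Counts of members with an unadjusted p below 0.05 are therefore given beside the same percentage over all genes tested in the main edgeR fits. For alternative fits that percentage was not taken, so their counts stand without it. Log2 fold changes are ethanol relative to saline, and over all genes tested their median lay between -0.0068 and 0.0068 in the 10 comparisons.

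**Figure D3:**
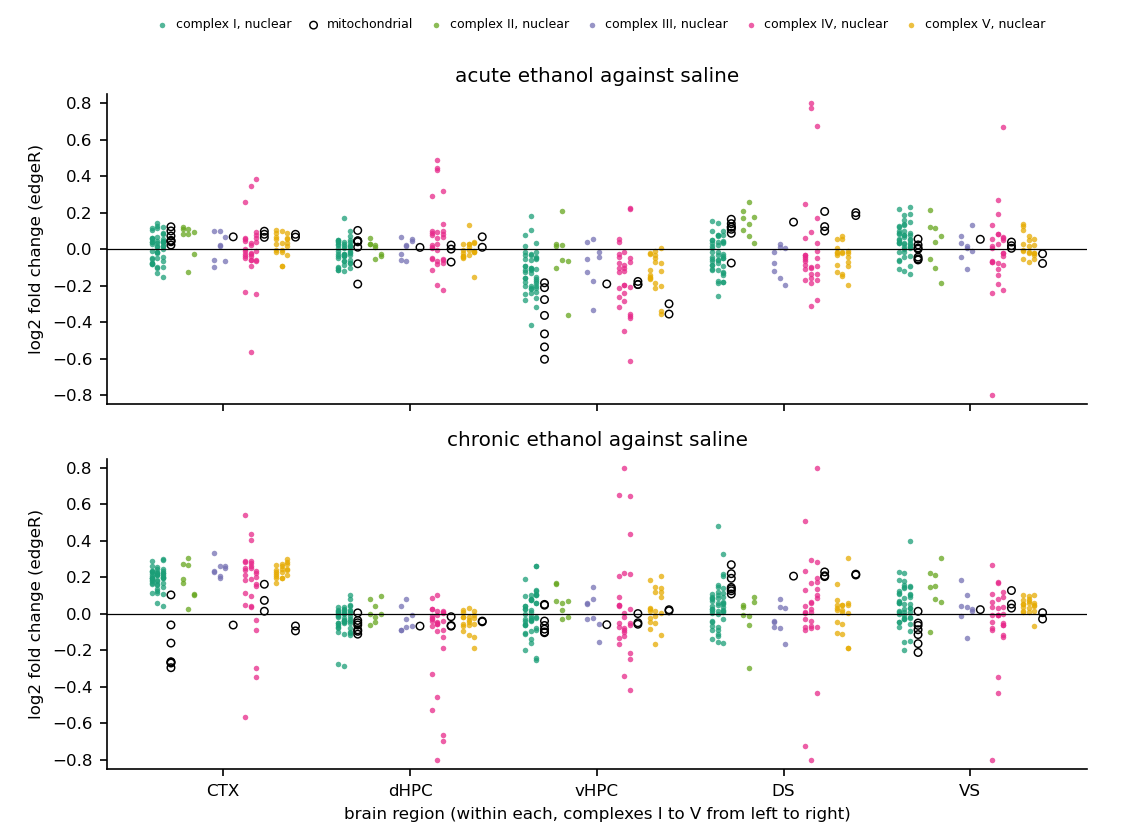
edgeR log2 fold change of every tested member, ethanol relative to saline, by region and complex, for the acute (top) and chronic (bottom) paradigm. Nuclear genes of every complex sit mostly above 0 in chronic CTX, both genomes sit mostly below 0 in acute vHPC, and 7 values beyond 0.8 in size are drawn at that limit.

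In the cortex of chronically treated mice, the nuclear subunits stood higher with ethanol across the whole chain, while the mitochondrial genes were split by 1 library. All 77 nuclear subunits had a positive log2 fold change, from 0.11 to 0.33 with a median of 0.23. Of 109 nuclear members tested, 104 were higher with ethanol (median 0.21), against 4 of 13 mitochondrial genes (median -0.07). No gene of any kind passed the FDR in this comparison (0% of 25644 genes), and the smallest FDR of a member was 0.443 (edgeR). At an unadjusted p below 0.05, 48 nuclear members (44.0%) were higher and 0 lower, against 4.31% of all genes that were higher and 10.4% in either direction. In 55 of 109 nuclear members (50.5%) every ethanol library stood above every saline library, against 8.99% of all genes.

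The nuclear genes stood higher in each complex. Medians were 0.20 for complex I (45 of 45 higher, 16 with p below 0.05), 0.18 for complex II (8 of 8, 3), 0.24 for complex III (8 of 8, 5), 0.20 for complex IV (24 of 29, 10) and 0.24 for complex V (19 of 19, 14). Assembly factors, which help to build the complexes without staying in them, had a median of 0.12, with 19 of 22 higher and 2 with p below 0.05. By library median over the subunits, the groups did not overlap in complexes I, II, III and V. In complex IV they overlapped, at -0.127 to 0.117 with saline and 0.109 to 0.313 with ethanol. No test was run on these medians.

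Complex II is wholly nuclear and doubles as an enzyme of the citrate cycle. Sdhb read 85.9, 90.8 and 83.7 CPM in the saline libraries and 97.0, 111.5 and 113.9 CPM in the ethanol libraries (log2 fold change 0.31 ± 0.09 SE, edgeR FDR = 0.443). Sdhd read 48.8, 51.5 and 52.4 CPM with saline and 60.8, 61.5 and 62.4 CPM with ethanol (0.27 ± 0.08, edgeR FDR = 0.443). The groups did not overlap in either gene. The flavoprotein subunit Sdha, at 308 to 337 CPM with saline and 351 to 357 CPM with ethanol, had the smallest difference of the 4 subunits (0.11 ± 0.08, edgeR FDR = 0.610).

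Complexes I and III gave the same picture at gene level. Ndufb1, an accessory subunit of complex I, read 25.1, 23.7 and 24.5 CPM with saline and 27.9, 32.6 and 29.8 CPM with ethanol (0.30 ± 0.09). Ndufv1, which binds the flavin that accepts electrons from NADH, read 117.0, 136.0 and 128.6 CPM with saline and 144.1, 145.9 and 158.5 CPM with ethanol (0.23 ± 0.09). The groups did not overlap in these genes, whereas they did in Ndufs1, the largest iron-sulphur subunit, at 116 to 128 CPM with saline and 124 to 140 CPM with ethanol (0.11 ± 0.08). Uqcrc1 of complex III read 157.6, 193.5 and 173.3 CPM with saline and 202.2, 208.6 and 218.8 CPM with ethanol (0.26 ± 0.09), without overlap.

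In complex IV, Cox5a read 88.7, 102.1 and 100.5 CPM with saline and 115.3, 120.0 and 120.4 CPM with ethanol (0.29 ± 0.08), without overlap. Cox4i1, a subunit that contacts the catalytic core, read 285.8, 333.6 and 303.3 CPM with saline and 327.1, 377.6 and 393.4 CPM with ethanol, where the lowest ethanol library lay below the highest saline library (0.25 ± 0.10). The same held for Cox8a (0.28 ± 0.12) and Cox6a1 (0.26 ± 0.15). Cox5b-ps, a retained copy of Cox5b, had the largest positive difference: 7.47, 7.54 and 9.19 CPM with saline and 11.4, 12.5 and 11.4 CPM with ethanol (0.54 ± 0.12, edgeR FDR = 0.443, DESeq2 FDR = 0.0490). Reads that fit both Cox5b and this copy were counted for each, so its value is uncertain, and Cox5b itself stood at 0.28 ± 0.10 with overlap.

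In complex V, Atp5f1b read 766.6, 891.4 and 888.8 CPM with saline and 980.1, 989.3 and 1043 CPM with ethanol (0.24 ± 0.09), and Atp5f1a 641 to 712 CPM with saline and 774 to 813 CPM with ethanol (0.21 ± 0.08). Atp5me, whose promoter is printed above, read 50.4, 58.8 and 59.2 CPM with saline and 60.98, 70.9 and 73.5 CPM with ethanol (0.29 ± 0.10). None of these groups overlapped. Atp5if1, the inhibitor that stops the synthase from running backwards, stood at 89.5 to 105 CPM with saline and 102 to 120 CPM with ethanol (0.20 ± 0.10), with overlap.

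The mitochondrial genes of chronic CTX depended on ethanol replicate 6. mt-Nd4 read 4471, 3964 and 4529 CPM with saline and 4118, 4663 and 1977 CPM with ethanol, and mt-Nd5 3292, 2914 and 3402 CPM with saline and 3284, 3506 and 1204 CPM with ethanol. The low value belonged to ethanol replicate 6 in both genes. mt-Co1 was less split, at 13771, 12334 and 13811 CPM with saline and 13409, 16532 and 12074 CPM with ethanol. The median over the 13 genes, taken against the saline mean, was 0.02, 0.24 and -0.68 in ethanol replicates 1, 5 and 6. Without replicate 6, 13 of 13 mitochondrial genes were higher with ethanol (median 0.13), and the nuclear median was 0.18. That replicate was also the highest of the 6 libraries for the nuclear subunits. Complex I genes of the mitochondrial genome had a median of -0.26 (1 of 7 higher) and complex IV genes of 0.07 (3 of 3 higher) with all libraries.

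**Figure D4:**
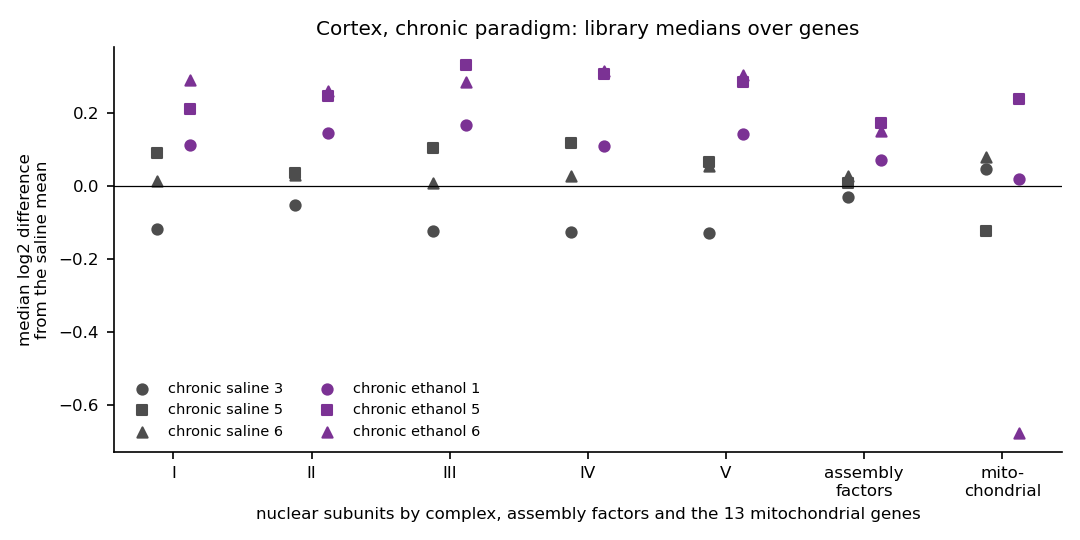
Chronic CTX: median log2 difference from the mean of the saline libraries over the genes of each class, one point per library, for nuclear subunits by complex, assembly factors and mitochondrial genes. Over all nuclear subunits the 3 saline libraries lay between -0.12 and 0.08 and the 3 ethanol libraries between 0.12 and 0.30, while ethanol replicate 6 stood at -0.68 for the mitochondrial genes. The groups overlapped in complex IV.

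The number of nuclear members at p below 0.05 in chronic CTX depended on single libraries. It was 9 without saline replicate 3, 15 without ethanol replicate 5, 25 without saline replicate 6 and 69 without ethanol replicate 1, while the nuclear median stayed between 0.17 and 0.26. The share of all genes at that p was not taken in these fits.

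Other gene classes stood higher in the same libraries. Cytosolic ribosomal proteins, chosen as short, abundant housekeeping transcripts, were higher in 28 of 28 (median 0.20, 12 with p below 0.05), and pyruvate dehydrogenase and citrate cycle enzymes in 16 of 16 (median 0.14, 4). Nucleotide and phosphate carriers and porins were higher in 8 of 9 (0.18, 3), other assembly factors in 25 of 31 (0.12, 2), and mitochondrial genome maintenance and RNA genes in 13 of 19 (0.05, 0). Cycs and Cyc1, which encode cytochromes c and c1 and lie outside the name rule, were both higher (median 0.15). Regulators of mitochondrial biogenesis, which include Nrf1, Gabpa and Ppargc1a, were lower in 8 of 12 (-0.04). None of these passed the FDR. Markers of myelinating oligodendrocytes were higher in 10 of 10 (0.30, 0 with p below 0.05), summing to 1181 to 2564 CPM with saline and 2003 to 3088 CPM with ethanol. Markers of astrocytes were higher in 4 of 8, of microglia in 6 of 8 and of endothelial cells in 2 of 6. Exon length moved with the comparison too. The fifth of genes with the shortest exons had a median of 0.13 and the fifth with the longest -0.12. After each library's trend in GC content and exon length was taken out, the nuclear median was 0.17, 101 of 109 were higher and 40 had a p below 0.05 and a positive value. For this fit the share of all genes at that p was not taken. The part of oligodendrocytes and of ribosomal proteins in the result was not tested.

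The interaction test asked whether chronic and acute ethanol differ. In CTX the chronic difference exceeded the acute one in 99 of 109 nuclear members (median 0.17) and in 2 of 13 mitochondrial genes (-0.16). Of all members 0 passed the FDR (0% of all genes did), and 21 nuclear members had a positive and 1 a negative difference at p below 0.05 (18.03% of 122 members), against 8.19% of all genes in either direction. Cox5b-ps stood at 0.57 ± 0.20 and Cox5a at 0.22 ± 0.10 (both edgeR FDR = 0.600), and Sdhb at 0.22 ± 0.10 (edgeR FDR = 0.607). Without chronic ethanol replicate 6 the mitochondrial median was 0.07, with 8 of 13 positive. The 21 positive nuclear members became 7 without acute ethanol replicate 4, 8 without chronic saline replicate 3, 11 without chronic ethanol replicate 5 or 6, 12 without acute saline replicate 2 or chronic saline replicate 6, 41 without chronic saline replicate 5 and 46 without chronic ethanol replicate 1. These counts have no share of all genes from the same fits beside them.

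In acute CTX the nuclear genes lay near 0 (63 of 109 higher, median 0.02). The 4 subunits of complex II had library medians against the saline mean of 0.08 to 0.13 with ethanol and -0.03 to 0.05 with saline, without overlap. Every other set of members compared by library median overlapped here, and no test was run on these medians. All 13 mitochondrial genes had a positive value, 0.02 to 0.12 with a median of 0.07, but the groups overlapped in each. Of 122 members 0 passed the FDR, against 1.99% of all genes, and 4 had a p below 0.05, or 3.28%, against 12.5%. Ndufs1 read 125.3, 116.2 and 116.9 CPM with saline and 131.5, 133.4 and 131.3 CPM with ethanol (0.14 ± 0.05, edgeR FDR = 0.239). Ndufa10, an accessory subunit of complex I, had 0.12 ± 0.05. Ndufs7, an iron-sulphur subunit next to the quinone site, went the other way, at 71.2, 76.4 and 68.8 CPM with saline and 67.7, 62.4 and 64.4 CPM with ethanol (-0.15 ± 0.06, edgeR FDR = 0.303). Oligodendrocyte markers were higher in 10 of 10 (median 0.34), of which 5 passed the FDR. Striatal markers were lower in 11 of 12 (-0.22, 3 past the FDR), endothelial markers in 6 of 6 (-0.18, 1 past the FDR) and choroid plexus markers in 9 of 10 (-0.86, 0). Dentate granule neuron markers were lower in 3 of 6 (2 past the FDR) and higher in 3 (0 past it). Pallial markers were lower in 6 of 9 and higher in 3, with 1 past the FDR in each direction. The part of these cell types in the members' values was not tested.

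In the ventral hippocampus after 1 dose, most genes of both genomes had a lower value with ethanol, but library medians separated the groups only for some sets. All 13 mitochondrial genes had a negative log2 fold change, -0.60 to -0.18 with a median of -0.28, and in 12 of them every ethanol library lay below every saline library. Of 108 nuclear members, 92 were lower (median -0.11), and 27 (25.0%) had no overlap in that direction, against 8.8% of all genes. By library median against the saline mean, the nuclear members overlapped, at -0.09 to 0.05 with saline and -0.13 to -0.05 with ethanol. The mitochondrial genes did not, at -0.12 to 0.18 with saline and -0.35 to -0.21 with ethanol. No test was run on these medians. With edgeR 0 members and 0% of all genes passed the FDR. At an unadjusted p below 0.05, 17 nuclear members (15.7%) and 8 mitochondrial genes were lower and 0 higher, together 20.7% of 121 members, against 5.67% of all genes that were lower and 11.9% in either direction. DESeq2 called 7 lower: mt-Nd1, mt-Nd2, mt-Nd3, mt-Nd6, mt-Atp8, Atp5mk and Ndufv2.

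The 3 largest mitochondrial differences were in complex I genes. mt-Nd3, whose product lines the quinone cavity of the complex, read 467.1, 357.0 and 352.3 CPM with saline and 275.5, 269.0 and 267.4 CPM with ethanol (-0.53 ± 0.12, edgeR FDR = 0.207). mt-Nd6 read 40.3, 30.4 and 29.9 CPM with saline and 23.3, 22.9 and 20.1 CPM with ethanol (-0.60 ± 0.14, edgeR FDR = 0.213). mt-Nd2 read 2813, 2069 and 2050 CPM with saline and 1735, 1688 and 1604 CPM with ethanol (-0.46 ± 0.13, edgeR FDR = 0.255). Saline replicate 2 was the highest library in all 3 genes, and without it the mitochondrial median was -0.16. mt-Nd1 (-0.36 ± 0.10), mt-Atp8 (-0.36 ± 0.11) and mt-Atp6 (-0.30 ± 0.10) followed. mt-Co1, at 13002, 11308 and 12537 CPM with saline and 11359, 10581 and 10281 CPM with ethanol, was the single gene whose groups overlapped (-0.19 ± 0.09).

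**Figure D5:**
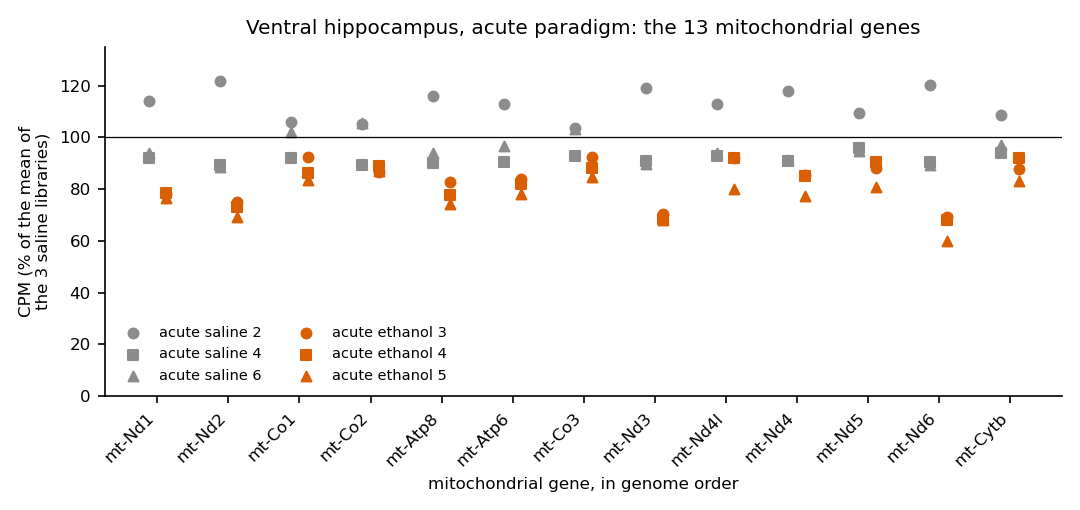
Acute vHPC: CPM of each mitochondrial gene in each library, as a percent of the mean of the 3 saline libraries, with genes in genome order. The 3 ethanol points lie below the 3 saline points in 12 of 13 genes, with mt-Co1 the exception.

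Among nuclear genes, complexes I, IV and V stood lower by median fold change and complex II was evenly split, a difference between complexes that was not tested. By library median over the subunits, the groups did not overlap in complex V, at -0.08 to 0.06 with saline and -0.14 to -0.10 with ethanol. They overlapped in complexes I, II, III and IV. The fold change values follow. Medians were -0.11 in complex I (40 of 45 lower), -0.12 in complex IV (24 of 28), -0.12 in complex V (18 of 19) and -0.05 in complex III, against -0.02 in complex II (4 of 8 lower). Atp5mk, a small subunit of the synthase dimer, read 97.1, 86.2 and 99.2 CPM with saline and 70.8, 75.3 and 74.99 CPM with ethanol (-0.35 ± 0.09, edgeR FDR = 0.223). Ndufv2, an iron-sulphur subunit of the NADH-binding module, read 107.1, 97.8 and 111.8 CPM with saline and 80.5, 85.8 and 88.3 CPM with ethanol (-0.31 ± 0.09, edgeR FDR = 0.257). The groups did not overlap in these genes, unlike in Sdha, at 388 to 421 CPM with saline and 380 to 397 CPM with ethanol (-0.07 ± 0.08). Sdhb likewise overlapped (-0.06 ± 0.10). The 17 nuclear members at p below 0.05 became 6 without ethanol replicate 3, 7 without saline replicate 2, 9 without ethanol replicate 5 and 11 without saline replicate 6 or ethanol replicate 4. Again the share of all genes was not taken in these fits.

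Cell type markers and base composition moved with acute vHPC. Thalamic markers were lower in 5 of 6 (median -1.39), summing to 175 to 854 CPM with saline and 102 to 268 CPM with ethanol. Dentate granule neuron markers were higher in 6 of 6 (1.04), at 177 to 344 CPM with saline and 437 to 646 CPM with ethanol. Parvalbumin interneuron markers were lower in 4 of 5 (-0.42), striatal markers higher in 12 of 12 (0.80) and oligodendrocyte markers lower in 10 of 10 (-0.31). None passed the FDR, and their part in the result was not tested. The fifth of genes lowest in exonic GC content had a median of -0.09 and the fifth highest 0.10, while the mitochondrial genes had a median GC content of 37.1%. After the GC and length trend of each library was taken out, the mitochondrial median was -0.005, with 5 of 13 higher, and the nuclear median -0.08.

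Citrate cycle enzymes were lower in 13 of 16 in acute vHPC (-0.09, 4 with p below 0.05), other assembly factors in 18 of 31 (-0.06, 3) and carriers and porins in 7 of 9 (-0.07, 1). Ribosomal proteins went the other way, higher in 26 of 28 (0.06, 1).

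In chronic vHPC the members lay near 0, with 58 of 108 nuclear genes higher (median 0.01) and 5 of 13 mitochondrial genes (-0.05). Of 121 members 0 passed the FDR, against 0.0555% of all genes, and 2 had a p below 0.05, or 1.65%, against 9.51%. mt-Nd3 read 312.6, 347.2 and 271.6 CPM with saline and 351.2, 313.4 and 298.1 CPM with ethanol. The interaction was positive for 13 of 13 mitochondrial genes (median 0.21) and 80 of 108 nuclear members (0.12). With edgeR 0 members and 0% of all genes passed, and 14 members had a positive and 1 a negative interaction at p below 0.05 (12.4% of 121), against 11.5% of all genes. Atp5mk (0.56 ± 0.14, edgeR FDR = 0.289), mt-Nd3 (0.58 ± 0.17), mt-Nd6 (0.65 ± 0.20) and Ndufv2 (0.44 ± 0.12) were called by DESeq2. After the GC and length trend was taken out, the mitochondrial interaction median was -0.14. Oligodendrocyte markers were higher in 10 of 10 in chronic vHPC (0.69, 8 with p below 0.05) and lower in 10 of 10 in acute vHPC (-0.31). In the chronic libraries striatal markers were also higher in 12 of 12 (1.62), dentate granule neuron markers in 6 of 6 (0.46) and choroid plexus markers in 10 of 10 (4.17), and endothelial markers lower in 6 of 6 (-0.36). Their part in the members' values and in the interaction was not tested.

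The largest chronic vHPC difference was in the muscle isoform Cox8b, at 0.356, 0.337 and 0.162 CPM with saline and 0.879, 1.72 and 1.13 CPM with ethanol (2.10 ± 0.60, edgeR FDR = 0.362). Of the 10 choroid plexus markers 6 passed the FDR in the same libraries, and the list summed to 26.7 to 211 CPM with saline and 924 to 3259 CPM with ethanol. The part of that tissue in the Cox8b value was not tested. Cox20, an assembly factor for complex IV, read 6.06, 5.57 and 7.61 CPM with saline and 9.04, 8.44 and 8.63 CPM with ethanol (0.44 ± 0.19, edgeR FDR = 0.511).

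In dHPC the members lay near 0 in both paradigms. In the acute comparison 54 of 109 nuclear genes were higher (median -0.00) and 10 of 13 mitochondrial genes (0.01). Of 122 members 0 passed the FDR, against 0.042% of all genes, and 6 had a p below 0.05, or 4.92%, against 7.88%. The muscle isoform Cox6a2 read 3.11, 2.69 and 3.399 CPM with saline and 3.90, 3.83, 5.24 and 3.65 CPM with ethanol (0.44 ± 0.16, edgeR FDR = 0.543). Ndufb7, an accessory subunit of complex I, had 0.17 ± 0.06, Cox11, a copper-handling assembly factor, -0.20 ± 0.08, and mt-Nd3 -0.19 ± 0.07. In the chronic comparison 36 of 109 nuclear genes were higher (-0.03) and 1 of 13 mitochondrial genes (-0.06), with 0 members and 0% of all genes past the FDR. There 2 members had a p below 0.05, or 1.64%, against 8.23%. Cox7a1 read 1.67, 0.895 and 1.25 CPM with saline and 0.735, 0.880 and 0.750 CPM with ethanol (-0.70 ± 0.27, edgeR FDR = 0.578), and Cox5b-ps had -0.33 ± 0.13. The dHPC interaction had 0 members and 0% of all genes past the FDR, with 5 members (4.10%) against 4.48% of all genes at p below 0.05. Beside these values, striatal markers were lower in 12 of 12 in both paradigms (median -0.91 and -2.34) and thalamic markers were higher in 6 of 6 in the acute one (0.73). In the chronic one oligodendrocyte markers were lower in 10 of 10 (-0.35) and choroid plexus markers in 10 of 10 (-1.39), and dentate granule neuron markers higher in 6 of 6 (0.59). The part of these cell types was not tested.

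In acute DS the mitochondrial genes and the nuclear subunits differed from saline in opposite directions by small amounts. Mitochondrial genes were higher in 12 of 13 (median 0.12) and nuclear subunits lower in 52 of 77 (-0.04). Both sets overlapped by library median against the saline mean. Mitochondrial medians ran from -0.16 to 0.12 with saline and -0.04 to 0.23 with ethanol, and subunit medians from -0.03 to 0.04 and -0.10 to 0.01. Assembly factors lay 0.04 above saline, also with overlap. Ethanol replicate 5 held 46564992 counts, against 9689502 to 15342254 in the other acute DS libraries, and the part of depth in the values was not tested. Of 121 members 0 passed the FDR in edgeR, against 5.15% of all genes, and 7 had a p below 0.05, or 5.79%, against 15.5%. Cox6a1 read 147.8, 158.5 and 151.9 CPM with saline and 131.9, 132.3 and 138.0 CPM with ethanol (-0.19 ± 0.06, edgeR FDR = 0.148, DESeq2 FDR = 0.0960). Uqcrq of complex III had -0.19 ± 0.07 and Ndufa12 of complex I -0.18 ± 0.08, both without overlap. mt-Co3 read 6531, 7172 and 8016 CPM with saline and 8725, 7476 and 8868 CPM with ethanol (0.21 ± 0.08, edgeR FDR = 0.20), with overlap. All 8 complex II genes were higher (median 0.16), with Sdhd at 47.9 ± 3.42 CPM with saline and 53.9 ± 3.92 CPM with ethanol. After the GC and length trend was taken out, the nuclear median was 0.03 and Cox6a1 stood at 0.04, both positive. The saline library medians over nuclear members had an SD of 0.049. The part of that trend in the values was not tested.

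Other pathway genes passed the test in acute DS. Ucp2, a carrier of the inner mitochondrial membrane, rose from 12.2, 14.3 and 16.6 CPM with saline to 23.5, 25.7 and 23.6 CPM with ethanol (0.75 ± 0.13, edgeR FDR = 0.00547). Atpaf1, an assembly factor for the ATP synthase, rose by 0.30 ± 0.08 (edgeR FDR = 0.0673). In the same libraries all 9 markers of pallial excitatory neurons fell (median -3.20), from 430 to 544 CPM in sum with saline to 31.0 to 117 CPM with ethanol. Striatal markers were higher in 12 of 12 (median 0.32, 10 past the FDR) and choroid plexus markers in 10 of 10 (1.75, 2 past the FDR). Oligodendrocyte markers were lower in 9 of 10 (-0.14, 0 past the FDR). The part of these cell types in the members' values was not tested.

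In chronic DS, fitted without saline replicate 2, the mitochondrial genes were higher in 13 of 13 (median 0.21) and the nuclear members in 72 of 109 (0.03). mt-Co3 read 6666 and 9159 CPM with saline and 9267, 8953, 8261 and 10102 CPM with ethanol. The lower saline value belonged to replicate 3, and without it the mitochondrial median was 0.01 with 8 of 13 higher, while without saline replicate 6 it was 0.43. With the left-out library included, the mitochondrial median was 0.80, since it held no counts on these genes, and the nuclear median -0.07. Of 122 members 0 passed the FDR (0% of all genes), and 1 had a p below 0.05, or 0.82%, against 7.53%. That gene was Atp5mj, a small subunit of the synthase, at 35.7 and 37.4 CPM with saline and 46.2, 41.0, 44.4 and 49.2 CPM with ethanol (0.31 ± 0.11, edgeR FDR = 0.5678). In the DS interaction 0 members and 0% of all genes passed, and 2 members (1.64%) had a p below 0.05, against 4.16%. The median over assembly factors, against the saline mean, was 0.05 to 0.18 in the 4 ethanol libraries and -0.01 to 0.01 in the 2 saline libraries. The other sets of members compared by library median overlapped, and no test was run on these medians. Several marker lists moved with chronic DS, with 0 genes past the FDR. Pallial markers were lower in 9 of 9 (-2.44), oligodendrocyte markers in 10 of 10 (-0.32) and choroid plexus markers in 10 of 10 (-1.46). Striatal markers were higher in 12 of 12 (0.45, 8 with p below 0.05) and thalamic markers in 6 of 6 (0.40). Their part in the members' values was not tested.

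In VS the members as a whole lay near 0. In the acute comparison 67 of 107 nuclear members (median 0.03) and 8 of 13 mitochondrial genes (0.01) were higher, with 0 members past the FDR against 0.0399% of all genes, and 1 at p below 0.05, or 0.833%, against 7.32%. That gene was Ndufb3, an accessory subunit of complex I, at 45.1, 46.5 and 43.6 CPM with saline and 54.2, 51.8 and 52.7 CPM with ethanol (0.23 ± 0.09, edgeR FDR = 0.624). In the chronic comparison 73 of 107 nuclear members (0.04) and 6 of 13 mitochondrial genes (-0.03) were higher, with 0 members and 0% of all genes past the FDR and 2 members at p below 0.05, or 1.67%, against 9.95%. Sdhb read 80.9, 85.0 and 88.9 CPM with saline and 103.9, 98.6 and 92.8 CPM with ethanol (0.21 ± 0.08, edgeR FDR = 0.456), and Ndufb7 had 0.23 ± 0.09. In the same chronic libraries the median over complex II subunits, against the saline mean, was 0.06 to 0.17 with ethanol and -0.08 to 0.05 with saline, and that over assembly factors 0.07 to 0.13 and -0.06 to 0.02, both without overlap. The other sets of members compared by library median overlapped, and no test was run on these medians. The VS interaction had 0 members and 0% of all genes past the FDR, and 0 members at p below 0.05, against 4.62% of all genes. Ribosomal proteins were higher in 28 of 28 in both paradigms (0.20 and 0.22, 12 and 16 with p below 0.05). Pallial markers were lower in 9 of 9 and 8 of 9 (-2.76 and -3.16). Oligodendrocyte markers were higher in 10 of 10 in the acute libraries (0.30) and lower in 10 of 10 in the chronic ones (-0.42, 8 with p below 0.05). Astrocyte markers were higher in 8 of 8 in the acute libraries (0.20), and the 6 choroid plexus markers tested were lower in the chronic ones (-3.28). The part of these cell types in the values of members and ribosomal proteins was not tested.

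Sdhb was tested in every region and paradigm and gives the spread of a single subunit. In the acute comparisons its log2 fold change was 0.08 ± 0.06 for CTX, 0.07 ± 0.09 for DS, 0.04 ± 0.10 for VS, 0.01 ± 0.07 for dHPC and -0.06 ± 0.10 for vHPC. In the chronic comparisons it was 0.31 ± 0.09 for CTX, 0.21 ± 0.08 for VS, 0.05 ± 0.07 for dHPC, 0.02 ± 0.10 for vHPC and -0.01 ± 0.08 for DS. Only the chronic CTX and chronic VS values had an unadjusted p below 0.05, at 0.00626 and 0.0318 (edgeR), and none of the 10 passed the FDR.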

How the data were processed

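Poly(A) RNA-seq counts per gene were used as deposited. The authors' pipeline was Cutadapt 5.0 for trimming, STAR 2.7.10a for alignment (GRCm39) and featureCounts 2.0.6 for the counts, with the reverse-strand setting for every library, also those of the kit that does not mark strand. A read with several alignments, or lying over more than 1 gene, added to every one of them.

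The members and the gene lists were chosen with earlier results of these data known. Genes reaching 5 counts in 2 or more libraries of any group compared were tested within a region by edgeR 4.0.16 (quasi-likelihood F test, TMM scaling, R 4.3.3) between ethanol and saline, and for the difference between the chronic and the acute effect, with Benjamini-Hochberg adjustment over all genes tested and a threshold of 0.1. DESeq2 1.42.0, other scalings, no low-count filter, a single fit per region to its 4 groups and leaving out each library were alternatives, and removal of the GC and exon length trend was added after seeing the data. Groups came from the labels. The code was tested on simulated counts of chronic CTX alone, with 200 genes changed by known folds. Those folds were larger than the differences of most members, so the simulation does not show how well such differences are found. Total counts per library ran from 8149628 to 71164766. The vHPC, DS and VS libraries were shallower than those of batch 1, except acute ethanol DS replicate 5 at 46564992. Shallower libraries give less precise values for low genes. P-values measure the spread between mice of a group.

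Named genes were members past the threshold, in each comparison up to 3 rises and 3 falls with p below 0.05, mean counts of 10 or more and groups that did not overlap, the 13 mitochondrial genes, a set of core subunits and isoform pairs, and list genes past the threshold. Atp5mk, Ndufv2, Atp5me and Cox5b fall outside this rule and were chosen after their values were seen. The chronic saline DS library of replicate 2 was left out of the tests that would use it.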

Additional observations from a re-analysis of the deposited data

Results flagged for a closer look

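In groups of 4 libraries, Dixon's test at the 95% level was applied to 89 values in 2 groups, and 6 had a library far from the others. Chance alone marks about 1 in 20 such values. In acute ethanol dHPC, replicate 2 lay below the other libraries in the median over nuclear subunits, at -0.1177 against the saline mean on the log2 scale, while the other 3 ethanol libraries lay between 0.02 and 0.03. The same library was low in Cox6b1 at 86.5 CPM, in Atp5f1b at 858 CPM and in Atp5if1, the ATP synthase inhibitor, at 71.9 CPM. In the same group, replicate 4 was high in the muscle isoform Cox6a2, at 5.24 CPM. In chronic ethanol DS, replicate 1 stood apart in the muscle isoform Cox7a1, at 2.19 CPM.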

How the results depend on the processing

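The count of members past the threshold was 0 in all 15 tests with edgeR, and 203 of 214 alternatives gave the same count. With DESeq2 the count was 7 in acute vHPC, 1 in acute DS, 1 in chronic CTX and 4 in the vHPC interaction. Without the low-count filter it was 2 in acute vHPC, 5 in acute DS (mt-Atp6, mt-Atp8, mt-Co3, mt-Cytb and mt-Nd5, all higher) and 3 in the vHPC interaction. Leaving out each library in turn gave 0 to 1 in acute CTX (mt-Nd5 without ethanol replicate 2), 0 to 1 in acute vHPC (mt-Nd3 without saline replicate 6) and 0 to 1 in acute DS (mt-Co3 without saline replicate 6 or ethanol replicate 4). With every library, 1.99%, 0% and 5.15% of all genes passed in acute CTX, vHPC and DS. The share of all genes in the left-out fits is not given, so these single calls are no result about the members. The cause of the differences between settings was not tested. Of 251 alternative medians, 227 differed from the main median by less than 1 SD of the saline library medians. The 40 alternative mitochondrial shares were taken over protein-coding counts or without mt-Nd6. Of these, 26 differed from the main group mean by less than 1 SD of that group's libraries. Removal of the GC and exon length trend, chosen after seeing the data, called 0 members in each test.

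Over all genes, edgeR and DESeq2 called 515 and 957 in acute CTX, 11 and 281 in acute dHPC, 0 and 578 in acute vHPC, 1056 and 1312 in acute DS, 8 and 178 in acute VS, 0 and 156 in chronic CTX, 0 and 223 in chronic dHPC, 11 and 214 in chronic vHPC, 0 and 154 in chronic DS, and 0 and 364 in chronic VS. For the interactions, where edgeR called 0 throughout, DESeq2 gave 417 (vHPC), 21 (CTX), 4 (DS), 4 (VS) and 2 (dHPC). In acute vHPC, DESeq2 thus called 7 of 121 members beside 578 of 19916 genes. In acute DS it called 1 of 121 members beside 1312 of 20495 genes. In chronic CTX these were 1 of 122 and 156 of 25644, and in the vHPC interaction 4 of 121 and 417 of 20618. Without the low-count filter edgeR called 1488, 253, 263, 1798 and 536 in acute CTX, dHPC, vHPC, DS and VS, 104, 790, 475 and 569 in chronic CTX, vHPC, DS and VS, and 314, 868, 235 and 195 in the interactions of CTX, vHPC, DS and VS. A single fit per region called 0, 5, 283 and 0 in acute CTX, dHPC, DS and VS, and 77, 0, 117 and 1 in chronic CTX, vHPC, DS and VS. After the trend was taken out, 17 were called in acute dHPC and 3 in acute VS.

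Replicate numbers did not pair the samples, since they name different mice and same-numbered libraries correlated at -0.31 to 0.15 in their deviations from the group means. With the replicate number as a block, 0 members were called in acute CTX, acute dHPC and chronic CTX, and in chronic CTX 8 nuclear members were higher at p below 0.05 (median 0.20). The share of all genes at that p was not taken with the block. The other comparisons share fewer than 2 numbers. Depth limits the precision of low isoforms such as Cox8b.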
